A study of Mus musculus with 16 samples.

Results

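The genes of transforming growth factor beta (TGF-beta), activin and bone morphogenetic protein (BMP) signalling were examined in brown adipose tissue (BAT). The list held 39 genes out of 49066 gene symbols: 13 ligands, 7 type I receptors, 4 type II receptors, 1 co-receptor, 5 receptor-regulated SMADs, the common SMAD, 2 inhibitory SMADs and 6 antagonists or binding proteins. They were taken by name from the signalling family to which growth differentiation factor 15 (GDF15) belongs, and all 39 were found.

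BAT was collected from male and female mice that were 18 weeks old and had received a high-fat diet (HFD, 60% of kcal from fat) for 12 weeks. All mice were on the C57BL6/J background and homozygous for the floxed allele (Gdf15 fl/fl). GDF15 BKO mice, called KO here, also carried Tg(Ucp1-cre)1Evdr. In this transgene the Ucp1 promoter, active in thermogenic adipocytes, drives Cre, and other cells keep Gdf15. Wild-type (WT) mice were littermates with the floxed allele and no Cre, so that any effect of Cre itself cannot be told apart from that of the deletion. Each combination of sex and genotype held 4 libraries. The comparison asked whether loss of Gdf15 in thermogenic adipocytes goes with other levels of these genes in each sex. Levels are TPM, a transcript abundance scaled for length that summed to 1000000 in each library, so read depth is unknown. Between 58140 and 65746 transcripts were above 0 in a library.

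Some libraries stood apart. In female WT replicate 4 a single transcript without a match in the annotation held 16.5% of all TPM, against at most 0.0527% in any other library. Transcripts of the mitochondrial genome took between 34.5% and 59.8% of TPM, the lowest share in that same library and the highest in male WT replicate 1. The unmatched transcript counts in the total of female WT replicate 4, which lowers the other TPM values of that library, this share included. Skeletal muscle markers summed to between 1.84 TPM in female WT replicate 4 and 3696 TPM in male KO replicate 1. The 8 brown adipocyte markers were high in every library, with sums from 8123 to 14875 TPM. The group means of Ucp1, the uncoupling protein of thermogenic adipocytes, lay between 2915 TPM in female WT and 3755 TPM in male KO mice.

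In this family a dimeric ligand brings together type I and type II serine/threonine kinase receptors, and the activated type I receptor phosphorylates receptor-regulated SMAD proteins, which enter the nucleus with SMAD4. TGF-beta and activin receptors chiefly use SMAD2 and SMAD3 and are known for driving fibroblasts to make matrix. BMP receptors use SMAD1, SMAD5 and SMAD9 and are known in fat for promoting the brown adipocyte fate and in vessels for endothelial quiescence. SMAD6 and SMAD7 block the receptors as feedback inhibitors, and secreted proteins such as follistatin and noggin hold ligands away from them.

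The targeted gene was examined first. Gdf15, a stress-induced distant member of the ligand family, stood at 0.368, 0.690, 1.55 and 3.81 TPM in male WT and at 0.0915, 0.0801, 0.255 and 0.272 TPM in male KO mice, so that every KO library lay below every WT library. In female WT mice it stood at 0.0622, 0.311, 0.170 and 0.290 TPM, and in female KO mice it was listed at 0 in 3 libraries and at 0.0794 TPM in the other, with overlapping groups. Male WT libraries were all above the female WT libraries. Gfral, the brainstem receptor for circulating GDF15, was listed at 0 in all 16 libraries, while its signalling partner Ret averaged between 0.340 and 0.534 TPM in the 4 groups.

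The level of the signalling genes differed widely. Tgfbr2, the ligand-binding type II receptor for TGF-beta, led with a mean of 19.6 TPM over the 16 libraries (range 12.6 to 29.4) and lay at percentile 90.4 of all genes with a mean above 0. It was followed by Tgfbr3 (betaglycan, the co-receptor; 12.6 TPM), Acvrl1 (ALK1, an endothelial type I receptor; 12.2 TPM), Fstl1 (follistatin-like 1, a secreted glycoprotein; 10.2 TPM), Smad2 (9.80 TPM), Smad4 (9.47 TPM), Bmp6 (9.10 TPM) and Tgfb1 (6.72 TPM). The ranges over libraries of neighbours in this order overlapped. Of the 13 ligands only Bmp6, Tgfb1 and Tgfb3 averaged at least 1 TPM, against 6 of 7 type I and 3 of 4 type II receptors. Bmp7, a ligand known for inducing brown adipocytes, averaged 0.0891 TPM, and the secreted BMP antagonists Nog and Grem1 averaged 0.0471 and 0.00174 TPM, with Grem1 listed at 0 in 14 libraries. Altogether 22 of 39 genes reached 1 TPM on average over the 16 libraries.

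**Figure D1:**
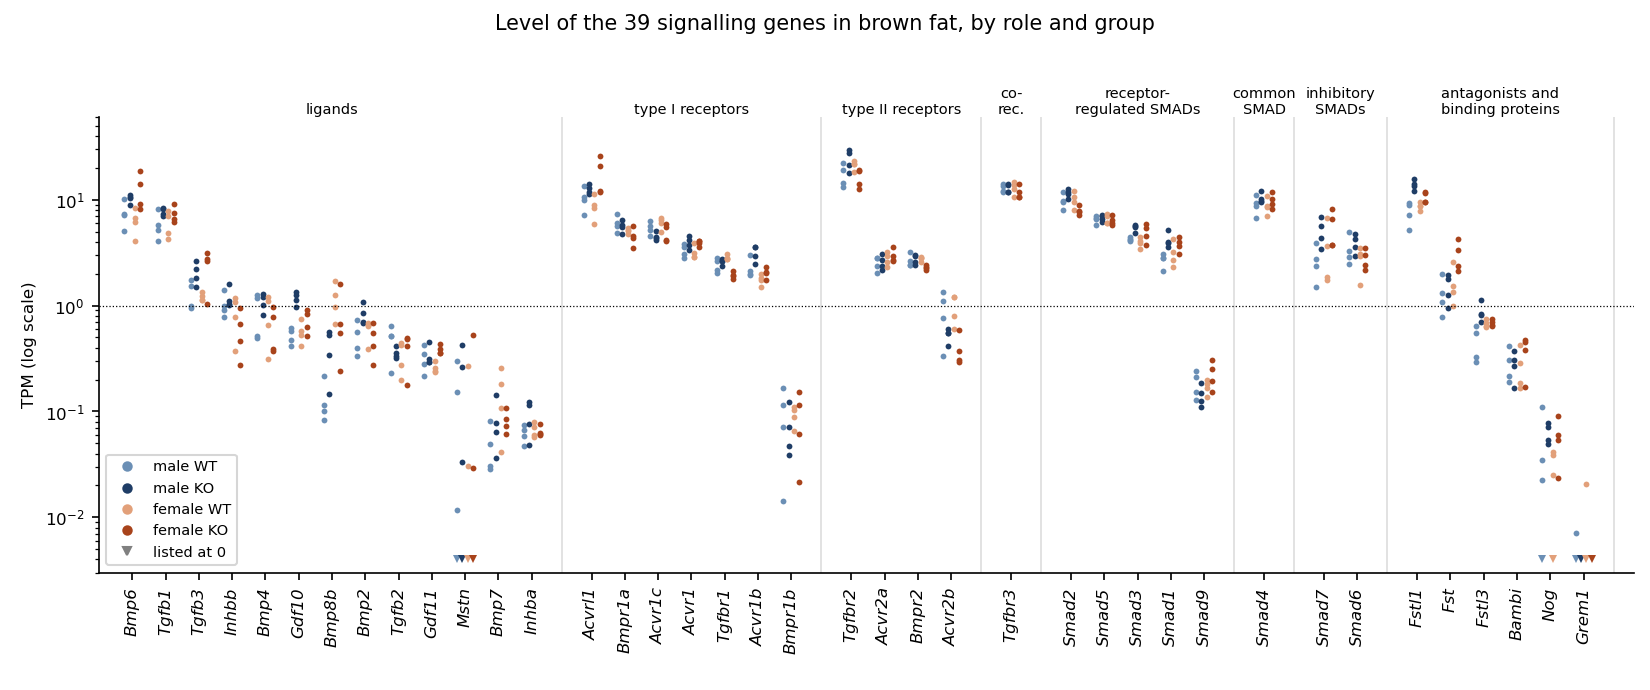
TPM of each of the 39 genes (log scale) in the 16 libraries, arranged by role and coloured by group; triangles at the bottom mark groups with libraries listed at 0, and the dotted line is 1 TPM. Receptors and SMADs lie mostly above 1 TPM, whereas 10 of 13 ligands lie mostly below it.

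Genotypes were compared within each sex by limma on log2(TPM + 0.5) over all genes with a mean of at least 1 TPM in the libraries of the comparison, and every fold change below is on that scale. In males 23 of the 39 genes were tested and 16 were below the minimum. None passed an adjusted p under 0.05, against 0.00821% of all genes tested. At an unadjusted p under 0.05, 9 of the 23 were higher in KO (17.7% of all genes tested) and 0 were lower (1.07%). The median log2 fold change of the 23 was 0.22 beside 0.16 over all genes, and 21 of 23 had a positive value. In 3 of the 23, Fstl1, Smad1 and Smad3, all KO libraries lay above all WT libraries (9.54% of all genes tested), and in none did they all lie below (0.673%). Without male WT replicate 1 the count of 9 became 4, without male WT replicate 3 it became 5, and without male KO replicate 2 or 3 it became 4. The share of all genes moved with it, from 17.7% to 10.4%, 13.2%, 9.37% and 10.5%.

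In females 22 genes were tested and 17 were below the minimum. None passed adjustment, as for all genes tested (0%). At an unadjusted p under 0.05, 4 were higher in KO (11.6% of all genes tested) and 3 were lower (5.46%). The median log2 fold change was 0.16 beside 0.10 over all genes, with 14 positive and 8 negative values. Acvrl1 had every KO library above the WT range (4.90% of all genes tested), and Tgfbr1 and Bmpr2 had every KO library below it (3.19%). The count of 3 lower genes became 1 without female WT replicate 3, female KO replicate 1 or female KO replicate 4, where 422, 379 and 425 of all genes were lower in place of 663.

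The scaling of the libraries bears on these counts. The median of all genes stood 0.16 above 0 in males and 0.10 above 0 in females, and with median-of-ratios scaling it was at 0.00 and 0.01. Relative to that shift the male signalling genes divided into 4 higher and 1 lower (all genes tested: 1010 higher and 877 lower, in place of 2151 and 130). The female ones divided into 3 higher and 5 lower (all genes: 1289 and 1163, in place of 1414 and 663). With mitochondrial transcripts left out, 8 male signalling genes were higher and 0 lower out of 28 tested (11.7% and 3.65% of all genes), and 5 female ones were higher and 3 lower out of 29 (7.95% and 3.62%). The female median log2 fold change of the signalling genes was then -0.00 beside 0.06 over all genes. It was 0.08 beside 0.01 under median-of-ratios scaling and 0.05 beside 0.12 with a minimum mean of 5 TPM. In the same order, the male median was 0.17 beside 0.07, 0.07 beside 0.00 and 0.26 beside 0.17. Where mitochondrial transcripts were left out, the rescaled total still held the unmatched transcripts (17.686% of TPM in female WT replicate 4 before rescaling).

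The 250 bases before each RefSeq start (GRCm38.p6) were examined in 4 genes on which these results turn. They are Fstl1, the sole gene with a call, Bmp6, with positive values in both sexes, and the receptors Tgfbr1 and Tgfbr2, which had the smallest p values for a difference between the sexes. In GENCODE M21, which places some starts further upstream, 182 bases of the Fstl1 window and all 250 of the Bmp6 window lie in the first exon of the gene. The 68 bases of Fstl1 that come before this exon are shown, and no bases of Bmp6. The second Tgfbr1 window lies in an intron of longer Tgfbr1 transcripts, and the first Tgfbr1 window and that of Tgfbr2 hold no GENCODE transcript of their gene. Each is written 5′ to 3′ on the strand of its gene. Capitals mark matches to CAGAC (or GTCTG on the other strand), which holds the core of the SMAD3 and SMAD4 binding element, and to GGCGCC, which reads the same on both strands and is part of BMP-responsive SMAD1 sites. The stretches shown are chr16:37776805-37776872 (plus strand) for Fstl1, chr4:47352972-47353221 (plus) for the first and chr4:47385966-47386215 (plus) for the second Tgfbr1 start, and chr9:116175364-116175613 (minus) for Tgfbr2.
Fstl1: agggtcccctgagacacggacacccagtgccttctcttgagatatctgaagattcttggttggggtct
Tgfbr1 first start: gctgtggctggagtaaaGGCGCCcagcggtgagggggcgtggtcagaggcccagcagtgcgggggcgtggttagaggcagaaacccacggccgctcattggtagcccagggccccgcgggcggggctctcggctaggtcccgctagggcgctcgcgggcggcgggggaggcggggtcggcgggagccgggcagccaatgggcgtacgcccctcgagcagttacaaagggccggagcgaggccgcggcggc
Tgfbr1 second start: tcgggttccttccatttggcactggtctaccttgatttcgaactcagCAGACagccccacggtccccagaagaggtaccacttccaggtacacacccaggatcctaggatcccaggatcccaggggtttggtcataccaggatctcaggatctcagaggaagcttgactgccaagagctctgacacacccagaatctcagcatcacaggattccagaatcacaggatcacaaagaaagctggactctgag
Tgfbr2: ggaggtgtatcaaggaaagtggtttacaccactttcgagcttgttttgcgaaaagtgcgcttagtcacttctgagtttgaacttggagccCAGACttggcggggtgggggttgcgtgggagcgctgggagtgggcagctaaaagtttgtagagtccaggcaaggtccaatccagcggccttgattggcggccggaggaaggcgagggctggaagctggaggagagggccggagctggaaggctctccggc
Over the whole 250 bases, the Fstl1 window held neither motif, that of Bmp6 held 1 CAGAC match, the 2 Tgfbr1 windows held 1 GGCGCC and 1 CAGAC match, and that of Tgfbr2 held 1 CAGAC match. Over the 34 windows of the 28 signalling genes in the table, 14 (41.2%) held CAGAC and 6 (17.6%) held GGCGCC, against 42.2% and 9.6% of 32851 windows of the same length over all genes. Of the 34 windows, 13 overlapped a GENCODE exon of their own gene, so not all of them are sequence outside the transcript. These matches describe letters in a window and were not tested for binding.

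The 3 ligands above the minimum in both sexes, Bmp6, Tgfb3 and Tgfb1, had higher means in KO mice of each sex. Bmp6, a BMP best known as the endothelial signal that controls hepcidin in the liver, stood at 5.09, 10.1, 7.21 and 7.34 TPM in male WT and 8.85, 10.3, 11.1 and 10.5 TPM in male KO mice. In females it stood at 6.70, 4.07, 6.18 and 8.35 TPM in WT and 18.7, 9.08, 8.11 and 13.98 TPM in KO mice. The groups overlapped through male WT replicate 2 and female WT replicate 4. The log2 fold change was 0.46 ± 0.18 (SE) in males (unadjusted p = 0.0312, adjusted p = 0.236) and 0.89 ± 0.28 in females (unadjusted p = 0.0120, adjusted p = 0.231).

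Tgfb3, one of the TGF-beta isoforms, stood at 0.995, 1.76, 0.945 and 1.53 TPM in male WT and 2.65, 1.83, 2.21 and 1.50 TPM in male KO mice. In females the WT libraries lay close together (1.13, 1.22, 1.14 and 1.33 TPM), and 3 of the KO libraries stood well above them (2.63, 2.75 and 3.15 TPM). Female KO replicate 2, at 1.03 TPM, was the lowest of all 8. The log2 fold change was 0.50 ± 0.21 in males (unadjusted p = 0.0403) and 0.69 ± 0.27 in females (unadjusted p = 0.0310). Tgfb1, the isoform secreted in latent form by most cell types, stood at 4.11, 8.14, 5.20 and 5.75 TPM in male WT and 7.34, 8.18, 8.34 and 7.03 TPM in male KO mice. In females it stood at 7.07, 4.28, 4.83 and 7.84 TPM in WT and 9.10, 6.55, 6.22 and 7.52 TPM in KO mice. Its groups overlapped in both sexes, with a log2 fold change of 0.42 ± 0.18 in males (unadjusted p = 0.0431) and 0.29 ± 0.20 in females (unadjusted p = 0.180).

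The other 10 ligands averaged under 1 TPM over the 16 libraries. Inhbb, the activin B subunit, passed the minimum in males alone, where its log2 fold change was 0.15 ± 0.20 (unadjusted p = 0.461). Below the minimum, 11 signalling genes had a male mean from 0.1 to 1 TPM, and in 2 of them, chosen here after their values were seen, all male KO libraries lay above all WT libraries (4.63% of all genes in that range; 1.52% in the other direction). The first was Gdf10, also called BMP3B, at 0.412, 0.619, 0.474 and 0.574 TPM in WT and 1.12, 1.34, 0.974 and 1.26 TPM in KO mice. The second was Fstl3, a follistatin relative, at 0.453 TPM ± 0.169 (SD, n = 4) in WT and 0.871 ± 0.190 in KO mice. In females 13 genes lay in that range, and those named were again chosen after their values were seen. Gdf11 was above the WT libraries in every KO library (0.259 TPM ± 0.0277 against 0.384 ± 0.0363, beside 2.30% of all genes in the range). Acvr2b, an activin receptor, was below them in every KO library (0.956 TPM ± 0.301 against 0.389 ± 0.136, beside 2.30%). The ligands Tgfb2, Inhba, Bmp2, Bmp4, Bmp7 and Bmp8b overlapped between genotypes in both sexes. Mstn, which encodes the muscle-derived ligand myostatin, also overlapped. It was listed at 0 in 6 libraries and was highest in female KO replicate 3 (0.524 TPM), male KO replicate 3 (0.420 TPM) and male WT replicate 2 (0.300 TPM). Skeletal muscle markers summed there to 3303, 2072 and 1615 TPM. In male KO replicate 1, with the highest sum of 3696 TPM, Mstn stood at 0.261 TPM. In the 6 libraries at 0 these markers summed to less than in any other library, of which the lowest had 71.0 TPM.

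Among the type I receptors, Acvrl1 and Tgfbr1 differed most between female genotypes, in opposite directions. Acvrl1 encodes ALK1, the endothelial receptor for circulating BMP9 and BMP10, and stood at 11.2, 5.95, 8.26 and 8.98 TPM in female WT and 26.1, 11.8, 12.1 and 20.6 TPM in female KO mice. The groups did not overlap, and the log2 fold change was 0.95 ± 0.28 (unadjusted p = 0.00814, adjusted p = 0.231). In males it was 7.12, 13.4, 10.7 and 9.94 TPM in WT and 11.2, 11.8, 12.8 and 14.1 TPM in KO mice, a difference of 0.29 ± 0.17 (unadjusted p = 0.130). Tgfbr1 encodes ALK5, the kinase that phosphorylates SMAD2 and SMAD3, and stood at 2.78, 2.81, 2.77 and 3.08 TPM in female WT and 1.79, 1.94, 1.92 and 2.11 TPM in female KO mice. The 2 sets of values were tight and separate, with a log2 fold change of -0.46 ± 0.12 (unadjusted p = 0.00397, adjusted p = 0.231). In males Tgfbr1 was 2.17, 2.03, 2.64 and 2.81 TPM in WT and 2.34, 2.66, 2.63 and 2.78 TPM in KO mice, and the fold change of 0.10 ± 0.13 became -0.05 under median-of-ratios scaling and -0.02 with the library-name prefix as a covariate.

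Acvr1b encodes ALK4, the main type I receptor for activins. It stood at 1.97, 1.95, 2.11 and 3.02 TPM in male WT and 2.95, 3.54, 3.58 and 2.48 TPM in male KO mice. Male WT replicate 4 was the library that made the groups overlap (log2 fold change 0.40 ± 0.16, unadjusted p = 0.0358). In females it ranged from 1.49 to 1.98 TPM in WT and from 1.74 to 2.32 TPM in KO mice. Acvr1c encodes ALK7, an adipocyte receptor for activin B, and had lower means in KO mice of both sexes. It stood at 6.35, 4.58, 5.18 and 5.66 TPM in male WT and 4.48, 4.12, 4.32 and 5.07 TPM in male KO mice. In females it stood at 6.03, 6.37, 6.66 and 4.95 TPM in WT and 4.08, 5.84, 4.15 and 5.48 TPM in KO mice. The log2 fold change was -0.24 ± 0.12 in males (limma, unadjusted p = 0.0655) and -0.28 ± 0.15 in females (unadjusted p = 0.0961). The BMP type I receptors Bmpr1a and Acvr1 had log2 fold changes of -0.08 and 0.22 in males and -0.18 and 0.25 in females, with unadjusted p values from 0.0812 to 0.591, and Bmpr1b averaged 0.0854 TPM.

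Tgfbr2 stood at 13.3, 14.5, 22.1 and 18.9 TPM in male WT and 17.9, 29.4, 27.8 and 21.2 TPM in male KO mice. The male fold change was 0.47 ± 0.21 on the log2 scale (unadjusted p = 0.0478). In females the direction was opposite, with 18.2, 21.5, 21.6 and 23.3 TPM in WT and 13.95, 19.1, 18.5 and 12.6 TPM in KO mice. The female value was -0.40 ± 0.16 (unadjusted p = 0.0356). Groups overlapped in both sexes. It has 2 annotated transcripts, both protein coding, that took 53.1% and 46.9% of its TPM. The first was below the WT range in every female KO library (11.3 TPM ± 1.59 against 7.51 ± 1.14), while the second overlapped (9.80 ± 0.956 against 8.53 ± 2.26). Bmpr2, the main BMP type II receptor, named here after its values were seen, lay between 2.60 and 2.90 TPM in female WT and between 2.19 and 2.42 TPM in female KO mice. The difference on the log2 scale was -0.24 ± 0.11 (unadjusted p = 0.0690) in females and 0.03 ± 0.12 in males. Acvr2a and the co-receptor Tgfbr3 had log2 fold changes between -0.13 and 0.08 in the 2 sexes.

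Among the SMADs, 2 receptor-regulated members had male KO libraries that all lay above the WT libraries. Smad1, which carries BMP signals, stood at 2.12, 2.79, 2.79 and 3.09 TPM in male WT and 3.96, 3.59, 5.17 and 3.90 TPM in male KO mice (log2 fold change 0.54 ± 0.14, unadjusted p = 0.00435, adjusted p = 0.173). In females it stood at 3.24, 2.33, 2.71 and 4.28 TPM in WT and 3.97, 3.63, 3.06 and 4.44 TPM in KO mice, with overlapping groups. Smad3, which carries TGF-beta and activin signals, was uniform among male WT libraries (4.18, 4.09, 4.42 and 4.24 TPM) and stood at 5.56, 5.83, 5.63 and 4.85 TPM in male KO mice. The difference was 0.33 ± 0.09 (unadjusted p = 0.00462, adjusted p = 0.173), or 0.18 under median-of-ratios scaling (unadjusted p = 0.103). Female values were 4.48, 3.45, 4.09 and 3.91 TPM in WT and 3.72, 5.90, 4.51 and 5.35 TPM in KO mice, with the lowest KO library inside the WT range.

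Smad2, the other TGF-beta and activin SMAD, stood at 8.05, 9.53, 9.63 and 11.9 TPM in male WT and 10.2, 11.9, 12.6 and 11.4 TPM in male KO mice. Female libraries stood at 9.41, 7.99, 10.6 and 12.1 TPM in WT and 7.63, 8.84, 7.15 and 7.82 TPM in KO mice. The log2 fold change was positive in males (0.24 ± 0.13, unadjusted p = 0.0898) and negative in females (-0.32 ± 0.14, unadjusted p = 0.0487), with overlapping groups in each. Smad7, the inhibitor that TGF-beta and BMP signals themselves induce, stood at 1.50, 2.34, 2.77 and 3.90 TPM in male WT and 3.39, 4.39, 5.61 and 6.93 TPM in male KO mice (log2 fold change 0.85 ± 0.27, unadjusted p = 0.0118). In females it was variable, at 3.63, 1.74, 1.85 and 6.69 TPM in WT and 8.13, 3.70, 3.70 and 6.57 TPM in KO mice, and the fold change of 0.70 ± 0.40 did not pass (unadjusted p = 0.113). Smad4, Smad5 and Smad6 had log2 fold changes between -0.05 and 0.21 over the 2 sexes, with no unadjusted p below 0.196, and Smad9 averaged 0.181 TPM.

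Fstl1 was the antagonist or binding protein with the highest level. Its product is a secreted glycoprotein with a follistatin-like domain that fibroblasts and other mesenchymal cells are known to release. It stood at 5.15, 8.86, 7.14 and 9.25 TPM in male WT and 12.0, 15.7, 14.02 and 13.5 TPM in male KO mice. The male groups were well apart, with a log2 fold change of 0.85 ± 0.18 that had an unadjusted p of 0.00101 and an adjusted p of 0.145. Female values were 8.71, 7.84, 9.61 and 8.73 TPM in WT and 11.7, 9.49, 9.49 and 11.5 TPM in KO mice, overlapping through female WT replicate 3. The female log2 fold change was 0.26 ± 0.12 (unadjusted p = 0.0600). One protein-coding transcript carried 93.7% of its TPM, at 7.36 TPM ± 1.71 in male WT and 12.8 ± 1.32 in male KO mice.

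Fst encodes follistatin, which binds and neutralises activins. In females it stood at 2.57, 1.52, 1.34 and 0.984 TPM in WT and 4.27, 2.37, 2.13 and 3.34 TPM in KO mice. The groups overlapped through female WT replicate 1, and the log2 fold change was 0.76 ± 0.27 (unadjusted p = 0.0195, adjusted p = 0.243). In males it stood at 1.31, 1.08, 0.779 and 1.97 TPM in WT and 1.27, 1.95, 1.77 and 0.955 TPM in KO mice, without separation. Among the low genes, Bambi, a decoy receptor, averaged between 0.266 and 0.372 TPM in the 4 groups, and its genotypes overlapped in both sexes, as did those of Nog, Grem1, Bmpr1b and Smad9.

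Single transcripts were compared by overlap of the groups alone, and those named were picked after their values were seen. Of 31 transcripts of signalling genes with a male mean of at least 1 TPM, 5 were above the WT range in every male KO library (6.93% of all such transcripts) and 0 below it (0.847%). They belonged to Acvrl1, Fstl1, Smad1, Smad3 and Smad7. In females 2 of 30, of Acvrl1 and Smad1, were above the WT range (5.62%), and 3, of Bmpr2, Tgfbr1 and Tgfbr2, were below it (3.12%). The main Smad1 transcript took 81.9% of its TPM and stood at 2.27 TPM ± 0.227 in male WT, 3.56 ± 0.698 in male KO, 2.22 ± 0.274 in female WT and 3.22 ± 0.288 in female KO mice. It was thus separate in both sexes, unlike the female sum over all Smad1 transcripts. The most abundant Acvrl1 transcript, with 42.0% of its TPM, was separate in males (3.54 ± 0.525 against 6.46 ± 0.971) and overlapped in females, whereas the next, with 26.3%, was separate in females (1.59 ± 0.975 against 5.53 ± 1.20) and overlapped in males.

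**Figure D2:**
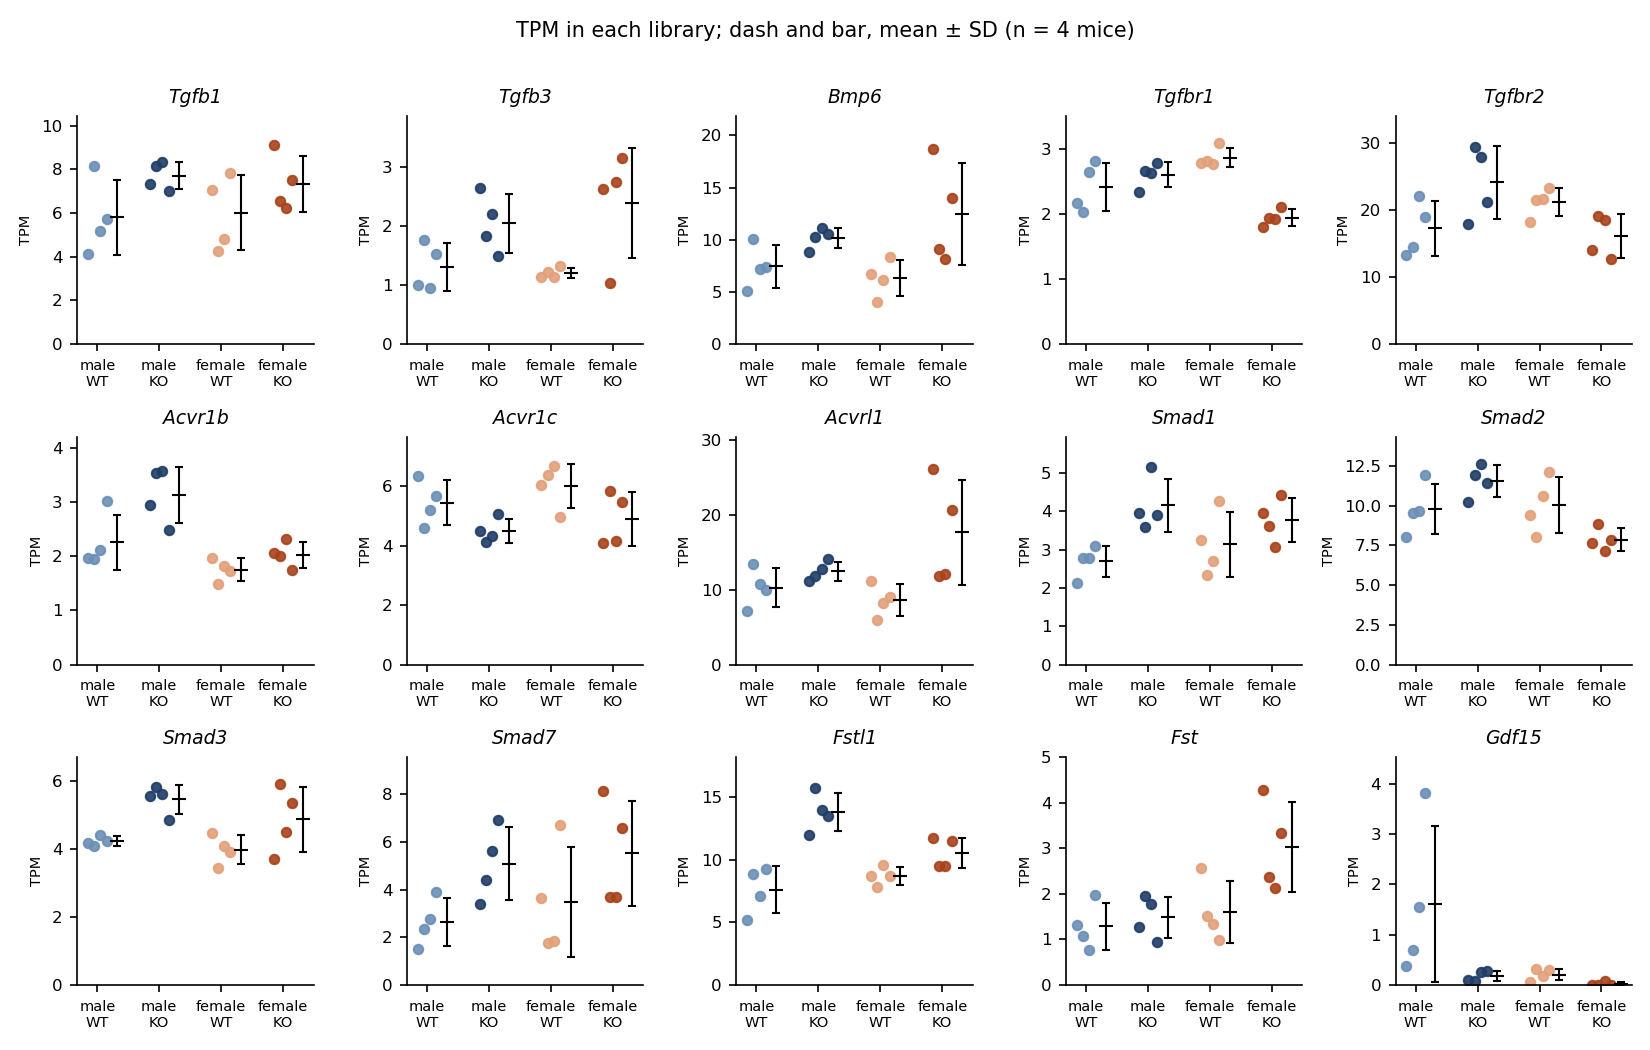
TPM (linear axes from 0) of 14 signalling genes and Gdf15 in each library, by sex and genotype; the dash and bar beside each group are the mean ± SD of 4 mice. Fstl1, Smad1 and Smad3 are separate between male genotypes, Acvrl1 and Tgfbr1 between female genotypes, and the Gdf15 panel shows the male WT libraries above the other 3 groups.

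Whether KO effects differed between males and females was tested directly, in 1 fit over all 16 libraries, which are also those of the comparisons within each sex. None of 22 signalling genes passed an adjusted p under 0.05 (0% of all genes), and at an unadjusted p under 0.05 the signed difference (male minus female log2 fold change) was positive in 4 (11.7% of all genes) and negative in 0 (2.51%). The 4 were Tgfbr1 (difference of log2 fold changes 0.56 ± 0.15, unadjusted p = 0.00238, adjusted p = 0.215), Tgfbr2 (0.87 ± 0.27, unadjusted p = 0.00560), Smad2 (0.56 ± 0.19, unadjusted p = 0.00910) and Fstl1 (0.59 ± 0.22, unadjusted p = 0.0153). Smad3, which encodes the other SMAD that TGFBR1 phosphorylates, had a difference of 0.08 ± 0.17 (unadjusted p = 0.628). Under median-of-ratios scaling these differences were 0.50, 0.80, 0.49 and 0.52, with unadjusted p values from 0.00295 to 0.0132. That scaling gave 1136 positive and 1129 negative differences over all genes, in place of 1431 and 306. In the opposite direction, Acvrl1 had a difference of -0.66 ± 0.35 (unadjusted p = 0.0812, or 0.0269 with -0.73 under median-of-ratios scaling) and Fst one of -0.59 ± 0.38 (unadjusted p = 0.139).

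**Figure D3:**
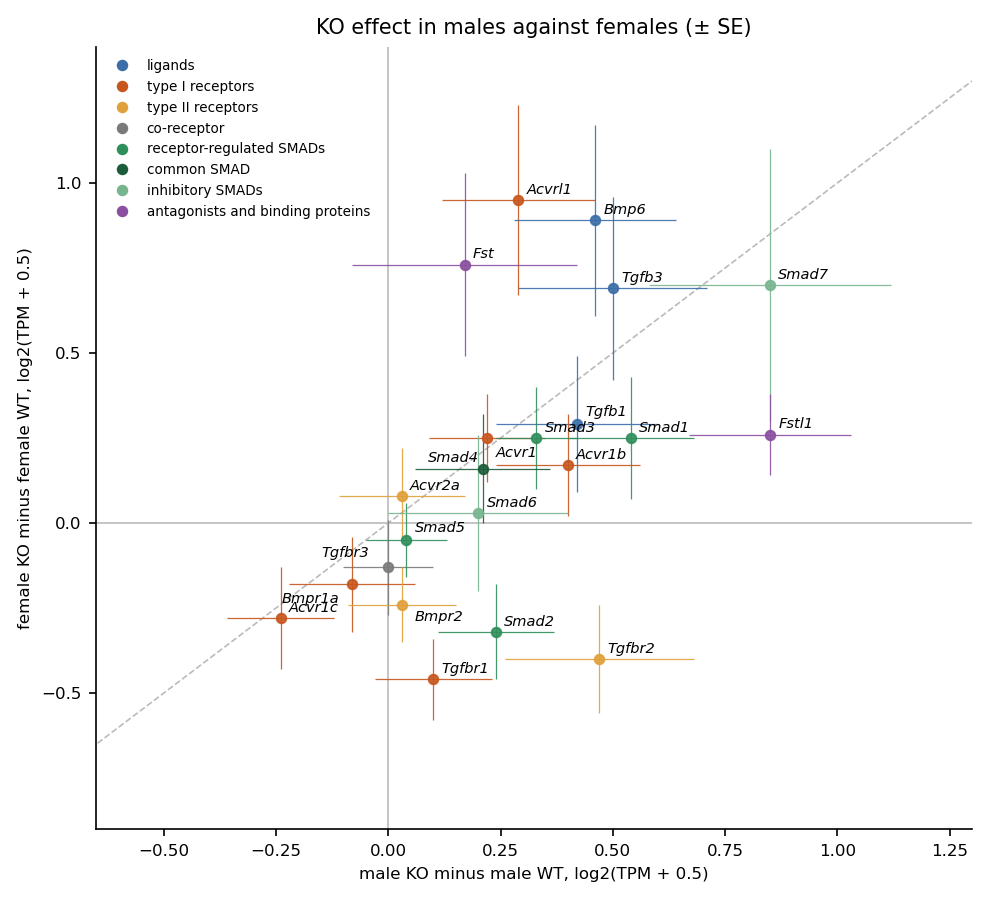
Log2 fold change of KO against WT in females (vertical) against males (horizontal) for the 22 signalling genes tested in both sexes, with SE bars and colours by role; the dashed line marks equal effects. Tgfbr1, Tgfbr2 and Smad2 lie below 0 in females and above it in males (Tgfbr1, at 0.10, was below 0 in males under median-of-ratios scaling), Fstl1 and Smad7 lie farthest to the right, and Acvrl1, Bmp6 and Fst lie above the line.

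Averaged over the sexes, with the same 16 libraries, Fstl1 rose in KO mice by 0.55 ± 0.11 on the log2 scale (limma, adjusted p = 0.0238). It was the sole signalling gene of 22 with an adjusted p under 0.05 (2.95% of all genes tested). Its adjusted p ran from 0.00904 to 0.135 over the alternatives, with a fold change between 0.43 and 0.60. It was 0.0619 with no minimum TPM and 0.135 with the prefix of the library names as a covariate. It was also above 0.05 without male WT replicate 3 (0.0561), male KO replicate 2 (0.0595), male KO replicate 3 (0.0567), female WT replicate 2 (0.0527), female KO replicate 1 (0.0599) or female KO replicate 4 (0.0548). At an unadjusted p under 0.05, 11 genes were higher (21.4% of all genes tested) and 2 lower (2.58%), with a median of 0.21 beside 0.13 over all genes. With median-of-ratios factors these counts at an unadjusted p under 0.05 became 6 and 5 (all genes: 1416 and 1114, in place of 2615 and 315). The next smallest adjusted p values were those of Bmp6 (0.67 ± 0.18, 0.0532), Acvrl1 (0.62 ± 0.18, 0.0623), Tgfb3 (0.60 ± 0.17, 0.0679), Smad3 (0.29 ± 0.08, 0.0679) and Smad1 (0.40 ± 0.12, 0.0699). The 2 lower genes were Acvr1c (-0.26 ± 0.09, unadjusted p = 0.0139) and Tgfbr1 (-0.18 ± 0.08, unadjusted p = 0.0303). With mitochondrial transcripts left out, 29 signalling genes were tested and 6 had an adjusted p under 0.05: Fstl1 (0.0161), Bmp6 (0.0198), Gdf10 (0.0308), Acvrl1 (0.0444), Smad1 (0.0476) and Acvr2b (0.0494), the last with a negative fold change of -0.72. This setting called 3.25% of all genes. Its total still held the unmatched transcripts, which lowers the other values of female WT replicate 4. The 6 calls were not examined without that library.

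Between WT females and WT males, none of 22 signalling genes had an adjusted p under 0.05 (0.0655% of all genes) and 0 had an unadjusted p under 0.05 (4.65%). Among the low genes, named after their values were seen, Bmp8b, a ligand produced by brown adipocytes and known to raise their response to noradrenaline, stood between 0.0825 and 0.214 TPM in the 4 male WT libraries and at 1.69, 0.667, 0.967 and 1.27 TPM in female WT mice. Every female library was above the male ones, beside 2.29% of all genes with a WT mean from 0.1 to 1 TPM, and Bmp8b was 1 of 11 signalling genes in that range. Bmp8a is a near-identical neighbour, so the split of reads between these copies is uncertain. The WT libraries of the 2 sexes shared no library-name prefix, so sex and prefix cannot be told apart there.

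Markers of other cell types moved with several of these genes. In bulk tissue, fewer cells of a type and less RNA per cell cannot be told apart. In females the 6 endothelial markers, of which Cdh5 (VE-cadherin) was the most abundant, summed to 188, 139, 177 and 204 TPM in WT and 443, 240, 233 and 334 TPM in KO mice, without overlap. None of the 6 was at 0 in all libraries. At an unadjusted p under 0.05, 5 of the 6 were higher in female KO mice (11.6% of all genes), with a median log2 fold change of 0.76. Acvrl1 per 100 TPM of these markers ranged from 4.28 to 5.97 in female WT and from 4.90 to 6.16 in female KO mice, and Bmp6 from 2.93 to 4.10 and from 3.48 to 4.21, overlapping in each case. Tgfbr2 per 100 TPM of the same markers ranged from 9.67 to 15.5 in female WT and from 3.15 to 7.97 in female KO mice, without overlap. Smad1 (1.53 to 2.10 against 0.895 to 1.51) and Tgfb1 (2.73 to 3.85 against 2.05 to 2.72) were also lower per 100 TPM of these markers in female KO mice, without overlap, while the log2 fold changes of their TPM were 0.25 and 0.29 and the marker sum was higher. Smad7 per 100 TPM of these markers overlapped (1.04 to 3.28 against 1.54 to 1.97), as did Tgfb1 per 100 TPM of the macrophage markers (10.1 to 29.7 against 16.7 to 19.7). In males the 6 endothelial markers summed to 148, 277, 185 and 211 TPM in WT and 232, 264, 249 and 258 TPM in KO mice and overlapped. Of these, Pecam1 and Cdh5 were higher in male KO mice at an unadjusted p under 0.05 (17.7% of all genes), with a median log2 fold change of 0.36 over the 6, and under median-of-ratios scaling 0 were (8.36%), with a median of 0.19. The part of endothelial RNA in these differences was not tested.

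In males the 7 fibroblast and progenitor markers, led by Col3a1, summed to 117, 160, 101 and 179 TPM in WT and 207, 213, 212 and 203 TPM in KO mice, without overlap. Of the 6 tested, 3 (Pi16, Lum and Col3a1) were higher at an unadjusted p under 0.05 (17.7% of all genes), and Pdgfra, Dpt, Lum and Dcn overlapped between male genotypes. The separation of the sums rested on Col3a1, which is also one of the TGF-beta targets below. Without it, a choice made after the values were seen, the sums were 79.1, 93.3, 60.2 and 111 TPM in WT and 116, 109, 109 and 95.8 TPM in KO mice and overlapped. The 6 macrophage markers, led by C1qb, summed to 20.2, 40.0, 25.9 and 40.6 TPM in male WT and 49.1, 72.1, 57.9 and 77.2 TPM in male KO mice, without overlap with or without C1qb. Tgfb1 per 100 TPM of the macrophage markers ranged from 14.2 to 20.4 in male WT and from 9.10 to 14.9 in male KO mice (means of 18.7 and 12.4), while its TPM had a log2 fold change of 0.42. Fstl1 per 100 TPM of the fibroblast markers ranged from 4.41 to 7.07 in male WT and from 5.82 to 7.37 in male KO mice, and Gdf10 from 0.320 to 0.470 and from 0.459 to 0.630. The 6 mural cell markers, led by Rgs5, were higher without overlap in KO mice of both sexes (male means of 144 and 185 TPM, female means of 128 and 197 TPM). Without Rgs5 the male sums overlapped (up to 69.3 TPM in WT and from 63.5 to 83.8 TPM in KO mice) and the female ones did not. Tgfb3 per 100 TPM of the mural markers ranged from 0.655 to 1.04 in male WT, 0.881 to 1.46 in male KO, 0.835 to 1.06 in female WT and 0.662 to 1.61 in female KO mice. The summed markers of brown adipocytes, skeletal muscle, Schwann cells, lymphocytes, mesothelial cells and epithelial cells overlapped between genotypes in both sexes. Of the 8 brown adipocyte markers, 1 was lower in male KO mice at an unadjusted p under 0.05 (1.07% of all genes), and 4 were lower under median-of-ratios scaling (7.26%) or with mitochondrial transcripts left out (3.65%). In females 0 were higher or lower in each of these settings. How much of the male differences these cells carry was not tested.

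**Figure D4:**
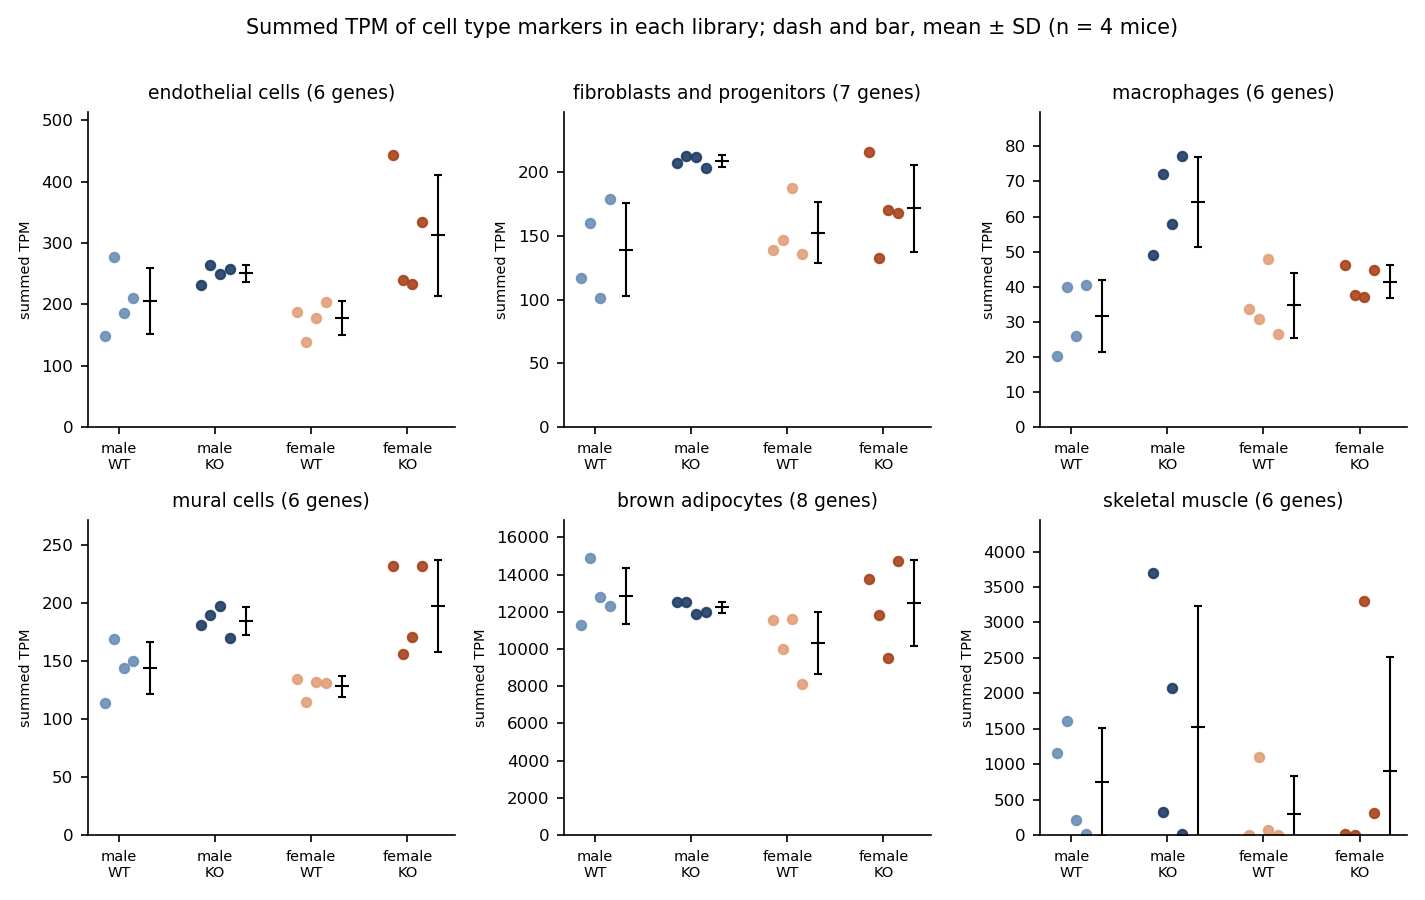
Summed TPM (linear axes from 0) of the markers of 6 cell types in each library, by sex and genotype; the dash and bar are the mean ± SD of 4 mice, and bars that would reach below 0 are cut there. Endothelial markers separate the female genotypes and macrophage markers the male ones, the male fibroblast sums are separate with Col3a1 but overlap without it, and skeletal muscle markers vary by library from 1.84 to 3696 TPM.

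Genes around the pathway were summarised from 7 lists, and the genes named from them were picked after their values were seen. Of 13 TGF-beta target genes, 12 were tested: in males 7 were higher and 0 lower at an unadjusted p under 0.05 (17.7% and 1.07% of all genes tested), with a median log2 fold change of 0.66. Fn1 (fibronectin; 3.75 TPM ± 1.19 in male WT and 9.86 ± 1.79 in male KO) and Col1a2 (a type I collagen chain; 12.1 ± 3.47 and 24.3 ± 1.75) had adjusted p values of 0.0184 and 0.0347 in the comparison averaged over the sexes (limma). Ccn2 (connective tissue growth factor) averaged 1.18 TPM ± 0.765 in male WT and 3.81 ± 0.992 in male KO mice. In females 1 was higher (Postn, 0.58 ± 0.25) and 2 lower (Ltbp2, -0.64 ± 0.27, and Skil, -0.31 ± 0.12), against 11.6% and 5.46% of all genes, with a median of 0.18. Several of these targets are matrix genes that fibroblasts make, and Col3a1 is also one of the fibroblast markers above. From the same RNA sequencing the paper reported collagen genes and Fn1 as higher in male KO mice. The list was chosen with such results known, so its male count is not independent of them.

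Of 9 BMP target genes, 7 were tested, and the list shares Smad6, Smad7 and Smad9 with the signalling genes. In females 4 were higher at an unadjusted p under 0.05 (11.6% of all genes): Id1 (29.2 TPM ± 12.8 in WT and 52.6 ± 13.1 in KO), Id3 (40.5 ± 6.40 and 56.9 ± 8.10), Atoh8 (2.39 ± 1.15 and 5.47 ± 1.89) and Hey1 (2.38 ± 0.642 and 4.41 ± 1.26). All are transcriptional regulators known as direct BMP-SMAD targets, also in endothelium. In males 3 were higher (Hey1, Smad7 and Atoh8; 17.7% of all genes), and none was lower in either sex. The median log2 fold change was 0.70 in females and 0.27 in males. Hey1 and Atoh8 had averaged adjusted p values of 0.0252 and 0.0472 (limma), where 2.95% of all genes tested were under 0.05.

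**Figure D5:**
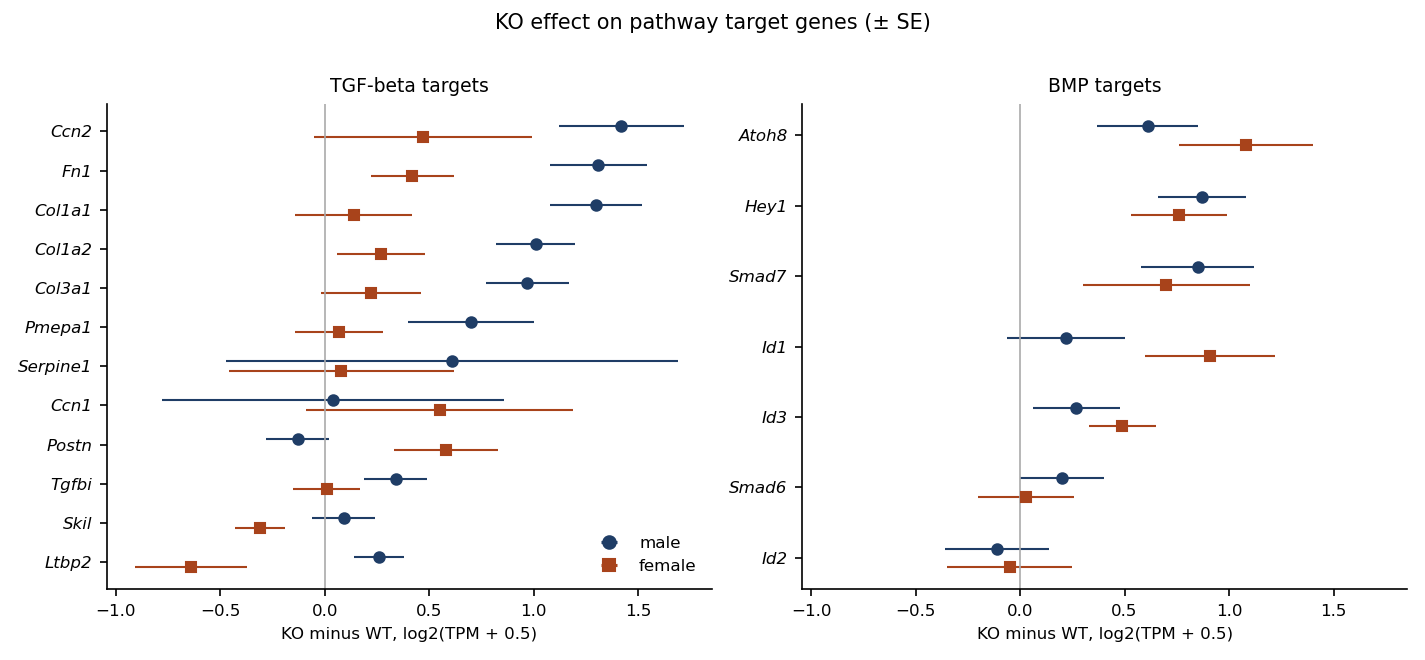
Log2 fold change of KO against WT (± SE) of the tested TGF-beta targets (left) and BMP targets (right), in males (circles) and females (squares). The male values of the matrix genes Fn1, Col1a1, Col1a2 and Col3a1 lie between 0.97 and 1.31 and their female values between 0.14 and 0.42, while Atoh8, Id1 and Hey1 exceed 0.70 in females.

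Among the remaining lists, Eng, the endothelial co-receptor that works with ALK1, stood at 39.1 TPM ± 11.5 in male WT and 57.8 ± 5.12 in male KO mice (unadjusted p = 0.0195). Female libraries stood at 34.0 ± 11.1 in WT and 72.8 ± 31.8 in KO mice (unadjusted p = 0.0140). It was the sole gene of 4 tested receptors and co-receptors with a p under 0.05 in either sex. The counts that follow are at an unadjusted p under 0.05, which 17.7% of all genes passed upwards and 1.07% downwards in males, and 11.6% and 5.46% in females. Of 10 tested genes for latent TGF-beta storage, 3 were higher in males (Fbn1, Ltbp4 and Itgb5), while in females Ltbp4 and Lrrc32 were higher and Ltbp2 lower. Ltbp2 here and Skil among the cofactors are the same genes that were counted above as lower TGF-beta targets. Fbn1, the microfibril protein fibrillin-1, differed in its KO effect between the sexes at an unadjusted p of 0.00229 (adjusted p = 0.215). Of 12 SMAD cofactors, 4 were higher in males, namely Ski, Fkbp1a, Smurf1 and Zfyve9, and in females 0 were higher and 2, Skil and Wwp1, were lower. Ski, a repressor of SMAD-driven transcription, had an averaged log2 fold change of 0.40 (adjusted p = 0.0323). The BMP antagonist Nbl1 stood at 1.65 TPM ± 0.639 in male WT and 4.21 ± 0.748 in male KO mice and had an averaged adjusted p of 0.0397. This call was lost under median-of-ratios scaling, where 0 of the 3 tested antagonists of its list passed adjustment (3.86% of all genes). Of the other tested antagonists, Twsg1 was lower in females (-0.33 ± 0.14). Of 20 further ligands only Gdf5 reached the minimum, with log2 fold changes of -0.23 ± 0.17 in males and -0.07 ± 0.33 in females.

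Median-of-ratios scaling changed several of these list counts (all genes: 8.36% higher and 7.26% lower in males, 10.6% and 9.54% in females). In males it left 5 TGF-beta targets higher and 1 lower, 2 BMP targets, 2 latent storage genes and 3 SMAD cofactors higher. In females 0 TGF-beta targets were higher and 2 lower, 4 BMP targets were higher, 1 latent storage gene was higher and 1 lower, and 4 SMAD cofactors were lower in place of 2, with a median log2 fold change of -0.21 in place of -0.12. With mitochondrial transcripts left out, the shares of all genes were 11.7% higher and 3.65% lower in males, and 7.95% and 3.62% in females. There 6 of 13 tested TGF-beta targets were higher in males and 1 lower, and 3 SMAD cofactors were higher. In females 0 TGF-beta targets were higher and 1 lower. The female lists also held 1 lower SMAD cofactor and 0 lower latent storage genes or other antagonists.

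Library names carry a prefix whose meaning was not stated, so values were also taken between libraries with the same prefix. In males 2 WT and 3 KO libraries shared prefix 9, and there the log2 differences were 0.78 for Fstl1, 0.44 for Smad1, 0.29 for Smad3, 0.67 for Smad7, 0.52 for Bmp6 and 0.33 for Tgfbr2. In females prefix 10 held 1 library of each genotype and prefix 8b held 3 WT and 1 KO libraries. The differences were -0.52 and -0.48 for Tgfbr1, 1.18 and 0.64 for Acvrl1, 1.41 and 0.41 for Bmp6, and -0.37 and -0.25 for Tgfbr2. Others were smaller or changed sign. In females they were 0.41 and 0.12 for Fstl1, 0.26 and 0.02 for Smad1 and -0.24 and 0.22 for Smad3, and in males Tgfbr1 stood at -0.02 within prefix 9. With the prefix as a covariate, 3 of the 23 male genes were higher at an unadjusted p under 0.05 in place of 9, beside 7.57% of all genes in place of 17.7%. Only prefix 9 held both male genotypes, so the male fold changes of this fit come from the same 2 WT and 3 KO libraries. It is therefore no separate check on the male values within prefix 9.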

How the data were processed

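Poly(A) RNA of BAT was sequenced as stranded single-end libraries, and the authors quantified transcripts with kallisto 0.46.2, with GRCm39 named in the submitters' processing notes; the annotation release was not given in the sources used here. The deposited table holds TPM per transcript for 16 libraries, scaled by the authors for transcript length and to a sum of 1000000, with no counts. The study's DESeq2 test needs counts and could not be used, and the depth of each library is unknown.

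Of 137438 transcripts, 135051 matched GENCODE M21 identifiers without version and were summed per gene symbol (49066 symbols); 2387 were left out. Genes with a mean of at least 1 TPM in the libraries of a comparison were tested on log2(TPM + 0.5) with limma 3.58.1 (R 4.3.3; linear model, empirical Bayes with a trend), and p values were Benjamini-Hochberg adjusted over all genes tested. Each sex was fitted on its 8 libraries, and the averaged effect, the difference between the sexes and the WT sex difference on all 16. An adjusted p under 0.05 was a call. For genes under the minimum only overlap of the groups was recorded. Only the fit within males was tested on simulated data, and the other fits were not. Tables were made with Python 3.11.15, pandas 2.3.3, numpy 2.4.6 and scipy 1.17.1.

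Values per library were given for genes with an unadjusted p under 0.05 in a comparison (at most 8, those with the smallest p), the most abundant gene of each role, and Gdf15; others are named as chosen after their values were seen. The members and lists were chosen with earlier results of these data known. Libraries were taken as separate mice. Alternatives were other pseudocounts, minima, scalings and transcript sets, no trend, a replicate block, the library-name prefix, a shared fit and leaving out each library.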

Additional observations from a re-analysis of the deposited data

Results flagged for a closer look

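Several libraries stood far from the other 3 of their group, by the gap to the nearest library relative to the range of the group. Acvr1b stood at 3.02 TPM in male WT replicate 4, Tgfbr1 at 3.08 TPM in female WT replicate 4 and Gdf11 at 0.448 TPM in male KO replicate 1. Gdf15 stood at 0.0794 TPM in female KO replicate 3 and at 0 in the other female KO libraries. Skeletal muscle markers summed to 1099 TPM in female WT replicate 2 and 3303 TPM in female KO replicate 3. Epithelial markers summed to 0.238 TPM in male WT replicate 1, 2.92 TPM in female WT replicate 4 and 6.89 TPM in female KO replicate 1. These were 9 of 124 groups examined (7.26%), where chance gives about 1 in 20.

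The signed difference of the KO effect, male minus female log2 fold change, was positive in 4 signalling genes at an unadjusted limma p below the threshold (11.7% of all genes, with 2.51% negative). Under median-of-ratios scaling 1136 of all genes were positive and 1129 negative. The difference was 0.56 for Tgfbr1 (unadjusted p = 0.00238), 0.87 for Tgfbr2 (unadjusted p = 0.00560), 0.56 for Smad2 (unadjusted p = 0.00910) and 0.59 for Fstl1 (unadjusted p = 0.0153). None passed adjustment over all genes.

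Outside the genes compared, 1 transcript with no match in the annotation held 16.5% of TPM in female WT replicate 4, against at most 0.0527% in any other library, and unmatched transcripts together held 17.686% there against at most 0.480% elsewhere.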

How the results depend on the processing

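Depth was unknown, so counting error could not be separated from other spread. The single-gene values kept their direction and their side of the threshold in 254 of 257 alternative fits in males, 259 of 259 in females, 323 of 357 averaged over the sexes and 345 of 357 for the difference between the sexes. Apart from Fstl1 averaged, these values had no adjusted p under 0.05 to lose. Causes of the shifts below were not tested. Shares in parentheses are those of all genes tested in the same fit, and a positive sex difference is a higher signed log2 fold change in males. With a minimum mean of 5 TPM, which tests fewer genes, the counts at an unadjusted p under 0.05 were 4 higher in males (18.6%), 2 higher and 1 lower in females (979 and 369 of 7504 genes), and 4 higher and 1 lower averaged (22.7% and 1.55%). With no minimum, 0 averaged genes passed adjustment (0.170%), 8 had a positive sex difference (6.49%) and 3 were higher in WT females (2.71%). Under median-of-ratios scaling the counts were 4 higher and 1 lower in males (8.36% and 7.26%), 5 lower in females (9.54%), 6 higher and 5 lower averaged (11.6% and 9.13%), 1 with a negative sex difference (9.26%) and 1 higher in WT females (3.02%); Tgfbr1 in males became -0.05, Tgfbr2 averaged -0.10 and the Acvr1c difference between the sexes -0.03. With mitochondrial transcripts left out, 6 averaged genes passed adjustment (3.25%), 7 had a positive and 1 a negative sex difference (5.12% and 4.31%), 1 was higher and 1 lower in WT females (1.25% and 5.02%), Tgfbr2 averaged was -0.04 and the Acvr1c difference -0.02. With protein-coding transcripts only, 5 averaged genes passed (720 of 10289 genes, against 360 of 12210). With the library-name prefix as a covariate, 3 male genes were higher (7.57%), 0 averaged genes passed (0.0983%), 6 averaged genes were higher (10.5%) and Tgfbr1 in males was -0.02. Without the trend 1 gene was higher in WT females (1.65%), and in 1 fit over 16 libraries 1 male gene, Fstl1, passed adjustment (0.311%). With the most abundant marker left out, an alternative chosen after seeing the data, the male log2 ratio of the summed markers (KO over WT) was 0.32 in place of 0.58 for fibroblasts and 0.52 in place of 0.36 for mural cells.

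The replicate numbers of the labels showed no steady pairing of the libraries. Same-numbered WT and KO libraries deviated together with correlations of 0.20, -0.09, 0.04 and 0.35 in males and 0.15, -0.11, -0.07 and 0.06 in females. Male WT replicates 1 and 4 and female WT replicate 1 correlated best with the KO library of their own number, and the others did not. With the replicate block, 1 gene was lower in males (1.36%), 1 was lower in females (4.97%), 0 averaged genes passed adjustment (Fstl1 at 0.0534), and 60 of all genes passed in place of 360.

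Leaving out each library in turn gave 4 to 8 higher and 0 to 1 lower genes in males, 1 to 4 lower in females, 0 to 5 averaged genes past adjustment, 1 to 2 lower averaged, 0 to 2 with a negative sex difference and 0 to 1 higher in WT females. Averaged, 5 genes passed without male WT replicate 2 (8.66%), 2 without female WT replicate 1 (4.34%), 3 without female WT replicate 4 (2.18%), and 4 each without female KO replicate 2 (4.80%) or 3 (7.07%). Tgfbr2 averaged ranged from -0.02 to 0.10, and the differences between the sexes ranged from -0.03 to 0.17 for Smad3, -0.19 to 0.37 for Smad7, -0.01 to 0.29 for Tgfb1 and -0.04 to 0.12 for Acvr1c.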
